A study of Mus musculus with 10 samples.

Results

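The genes described here encode constitutive subunits of the proteasome, the cylindrical protease that breaks down ubiquitin-tagged proteins, and chaperones that help to assemble it. The core particle is a stack of rings built from alpha and beta subunits, and the peptide bonds are cut inside the beta rings. The regulatory particle sits on the ends of the core and consists of a base, whose ATPase ring unfolds the substrate, and a lid, which removes the ubiquitin chain. Interferon gamma and some immune cells switch the catalytic subunits to inducible counterparts, which gives the immunoproteasome and changes the peptides that are offered on MHC class I. The constitutive genes were taken by symbol, as Psma1 to Psma7, Psmb1 to Psmb7, Psmc1 to Psmc6 and Psmd1 to Psmd14. Symbols came from the gene annotation GENCODE release vM21. No expression value entered that rule, but the list was fixed with earlier results of these data known. All 34 were among the 17737 genes of the count table, and all 34 passed the filter on low counts that left 13798 genes for testing.

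RNA was sequenced from 10 tumors of the mouse melanoma line B16-F10 that had grown under the skin of the right flank of C57BL/6 mice. The cells of 5 tumors, called WT 2 to WT 6, overexpressed wild-type interleukin 18 (IL-18), a cytokine that acts on lymphocytes. The cells of the other 5 tumors, D69A 1 to D69A 5, overexpressed IL-18 D69A, in which an alanine replaces an aspartate. Both groups were taken on day 11, and no group without an IL-18 construct was analysed here. The labels do not say whether each overexpressing line was 1 clone or a pool, nor that each tumor came from a different mouse. The p-values thus speak of the spread among these samples, which may be partly technical. Each tumor was sequenced as bulk RNA, in which fewer cells of a type and less RNA per cell cannot be told apart.

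Between 25904345 and 37578722 reads were counted per tumor, and levels are given as CPM, read counts scaled to library size with TMM factors. The groups were compared with the quasi-likelihood test of edgeR, with p-values adjusted by Benjamini-Hochberg over all 13798 genes and a threshold of 0.05. At that threshold 43.5% of tested genes differed between the groups, 18.8% with more and 24.7% with less RNA in D69A. RNA of marker genes for several cell types differed as well. All 14 pan-leukocyte marker genes fell in D69A, with a summed level of 770.1 to 1942.0 CPM in WT and 291.0 to 571.6 CPM in D69A, and none was at 0 in any group mean. The highest leukocyte sums of their groups were in WT 3, WT 5 and D69A 1. Of 12 pigment cell markers 9 rose, with sums of 17780.5 to 22006.9 CPM in WT and 26003.1 to 33844.2 CPM in D69A. Of 8 fibroblast markers 7 fell and of 6 endothelial markers all fell. None of 10 skeletal muscle markers passed the threshold, and their sums were highest in WT 4, WT 3 and D69A 1, at 1877.9, 1243.1 and 628.5 CPM.

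The starts of these genes carry some of the sequences that take part in setting how much of each RNA is made. RefSeq promoter sequences on GRCm38.p6, the 250 bases before the annotated start, were found for 28 of the 34 genes, as 30 promoters. Psmb1, Psmb2, Psmb7, Psmc3, Psmd3 and Psmd7 had no entry. Each promoter was searched on both strands for TGANNNNGC, for the CCAAT box, CCAAT, and for an ETS factor core, CCGGAAG. TGANNNNGC is a loose form of the core of the antioxidant response element, to which NRF1 and NRF2 bind. An occurrence of one motif can overlap that of another. Those of Psmd8 and Psmd10 are shown because these genes had the lowest and highest fold change of the 34, and those of Psmb5, Psmd2 and Psmd4, chosen after their values were seen, because they hold an antioxidant response element core, an ETS core, and an ETS core with a CCAAT box. Capitals mark motif matches, which are printed as their reverse complement where they lie on the other strand.
Psmd8, chr7:29180674-29180923, minus strand: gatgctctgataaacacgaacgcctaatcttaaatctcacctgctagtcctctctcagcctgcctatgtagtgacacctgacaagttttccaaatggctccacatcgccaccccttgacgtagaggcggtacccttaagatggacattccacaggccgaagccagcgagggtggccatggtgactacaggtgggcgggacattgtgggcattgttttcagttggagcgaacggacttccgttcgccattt
Psmd10, chrX:140956712-140956961, minus strand: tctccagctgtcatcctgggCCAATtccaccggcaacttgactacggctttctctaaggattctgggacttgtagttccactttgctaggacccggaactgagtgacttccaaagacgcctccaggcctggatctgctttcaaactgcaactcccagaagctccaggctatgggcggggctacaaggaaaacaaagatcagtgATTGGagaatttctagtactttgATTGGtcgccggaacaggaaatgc
Psmb5, chr14:54617996-54618245, minus strand: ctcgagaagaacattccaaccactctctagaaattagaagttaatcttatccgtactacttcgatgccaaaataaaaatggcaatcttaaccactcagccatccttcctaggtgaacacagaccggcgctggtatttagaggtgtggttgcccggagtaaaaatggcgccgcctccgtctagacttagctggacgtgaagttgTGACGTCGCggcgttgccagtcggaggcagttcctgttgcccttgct
Psmd2, chr16:20651402-20651651, plus strand: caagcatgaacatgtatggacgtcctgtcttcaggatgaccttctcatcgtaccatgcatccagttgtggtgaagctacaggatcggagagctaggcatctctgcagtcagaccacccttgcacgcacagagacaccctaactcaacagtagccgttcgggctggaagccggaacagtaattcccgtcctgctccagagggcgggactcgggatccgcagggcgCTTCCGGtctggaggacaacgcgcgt
Psmd4, chr3:95042615-95042864, minus strand: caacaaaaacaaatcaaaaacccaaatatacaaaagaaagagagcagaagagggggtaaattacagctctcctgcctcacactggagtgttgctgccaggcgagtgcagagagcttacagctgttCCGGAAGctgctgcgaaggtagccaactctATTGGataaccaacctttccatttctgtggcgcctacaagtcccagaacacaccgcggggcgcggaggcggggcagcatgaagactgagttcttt
The Psmd8 window held none of the 3 motifs and the Psmd10 window held 3 CCAAT boxes, which start 230, 47 and 24 bases before the gene start.

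The ETS core was present in 10 of the 30 promoters, or 33.3%, beside 6.91% of all 32851 RefSeq promoters of the same length. Among promoters of genes tested here the share was 12.6%, and among promoters of genes at or above the lowest mean level of the 34 it was 15.3%. The 9 genes with a match were Psma6 of the alpha ring, Psmc1, Psmc2 and Psmc6 of the ATPase ring, Psmd2 and Psmd4 of the base, and Psmd6, Psmd11 and Psmd12 of the lid. Psmd8, Psmd10 and Psma4, the 3 genes that differed between the groups, had no match, like most of the 28 genes with a promoter entry. A link between motif and fold change was not tested. The loose antioxidant response element core was in 12 promoters, 40.0% beside 37.0% of promoters of genes at or above that lowest level. The CCAAT box was in 11, 36.7% beside 34.7%. TGANNNNGC matched 35.2% of all RefSeq promoters, so its shares cannot say whether sites of NRF1 or NRF2 are more frequent here. These matches describe letters in the window and not bound sites.

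Across the 34 genes the 2 tumor groups had nearly the same RNA level. The summed level was 5370.5, 5000.6, 5270.2, 4880.4 and 5389.9 CPM in WT 2 to WT 6, and 5224.1, 4987.4, 5147.1, 5398.9 and 5296.8 CPM in D69A 1 to D69A 5. The means were 5182.3 ± 229.4 CPM in WT and 5210.9 ± 155.6 CPM in D69A (SD, n = 5 each), a change of 0.55%. The groups overlapped, and the 2 lowest WT tumors, WT 3 and WT 5, were those with the most leukocyte RNA. The 14 core particle genes summed to 2099.3 ± 97.3 CPM in WT and 2085.6 ± 72.6 CPM in D69A. The 20 Psmc and Psmd genes summed to 3083.0 ± 164.4 and 3125.3 ± 97 CPM. These 20 include the base chaperones Psmd5, Psmd9 and Psmd10, which are absent from the finished particle.

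Of the 34 genes 1 rose (Psmd10) and 2 fell (Psmd8 and Psma4) in D69A, and 31 did not pass the threshold. Among the 6433 tested genes at or above 33.9 CPM, the lowest mean of the 34, 42.0% passed. That set has no upper bound, so it is not matched to the 34 in level. Psmd8 was the single gene of the 34 whose CPM did not overlap between the groups, a pattern found in 29.4% of all tested genes. The log2 fold changes, given as D69A minus WT, ran from -0.28 to 0.26, with 19 above 0 and 15 below. Their median was 0.02, beside 0.00 over all tested genes and 0.10 over those at or above 33.9 CPM. The median size without sign was 0.06 for the 34, 0.23 for all genes and 0.17 for those at or above 33.9 CPM. The 95% interval of the fold change lay within 1.25-fold in either direction for 32 of the 34, or 94.1%. The same held for 29.5% of all tested genes and 45.6% of those at or above 33.9 CPM. Psmd8 and Psmd10 were the exceptions. The 34 genes also varied little within a group, with a median coefficient of variation of 7.22% in WT and 5.26% in D69A. Over genes at or above 33.9 CPM it was 9.02% and 6.62%. These are descriptions of the list, and the difference from other genes was not tested.

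**Figure D1:**
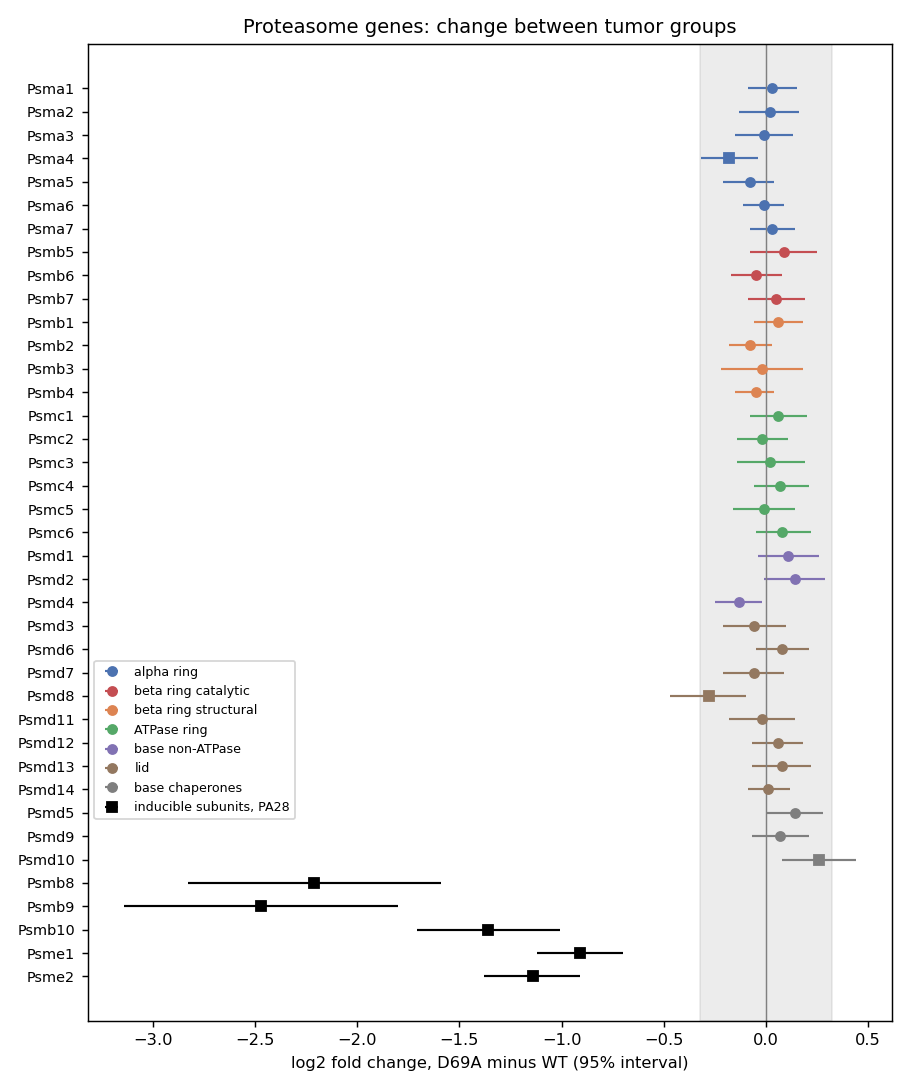
Log2 fold change, D69A minus WT (x axis), with 95% interval for the 34 constitutive genes by role and for the inducible subunits and PA28 genes (y axis). Squares passed the adjusted threshold of 0.05, circles did not, and the grey band spans 1.25-fold in either direction. The 34 lie between -0.28 and 0.26, and the 5 genes at the bottom between -2.47 and -0.91.

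Of the 7 alpha ring genes, whose products form the outer rings and the gate of the core, none rose and 1 fell, with a median log2 fold change of -0.01. Psma4 (mm10 chromosome 9, 54950790 to 54958030) was at 126.0, 137.7, 144.9, 129.3 and 138.8 CPM in WT 2 to WT 6. In D69A 1 to D69A 5 it was at 110.8, 118.4, 114.2, 135.1 and 118.7 CPM. D69A 4 lay within the WT range and the other 4 D69A tumors lay below it. The means were 135.4 ± 7.61 and 119.4 ± 9.33 CPM (SD, n = 5), a log2 fold change of -0.18 (SE 0.06, adjusted p = 0.0398). Leaving out each of the 10 tumors in turn kept that call 2 times, without WT 2 and without D69A 4, and the adjusted p reached 0.179 without D69A 3. The call was also lost without the filter on low counts (adjusted p = 0.0525) and with the 3 muscle-high tumors left out (-0.11, adjusted p = 0.305). The exons of Psma4 share 4.8% of their sequence with AY074887 on the opposite strand.

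Psma1, the alpha ring gene with the highest fold change beside Psma7, was at 184.6, 165.1, 195.4, 172.9 and 182.8 CPM in WT 2 to WT 6 and at 190.5, 176.6, 176.8, 182.7 and 194.6 CPM in D69A 1 to D69A 5. It was at a mean of 180.2 ± 11.6 CPM (WT) and 184.2 ± 8.09 CPM (D69A), with a log2 fold change of 0.03. The D69A tumors all lay within the WT range. Psma5 was at 105.2, 109.4, 113.0, 101.3 and 108.4 CPM in WT and at 94.1, 97.8, 101.8, 111.4 and 101.4 CPM in D69A. The groups overlapped, at a mean of 107.4 ± 4.41 CPM (WT) and 101.3 ± 6.47 CPM (D69A), with a log2 fold change of -0.08 (95% interval -0.21 to 0.04). Psma2, Psma3, Psma6 and Psma7 had log2 fold changes between -0.01 and 0.03. By group mean, though not in every tumor, Psma6 was the most abundant of the 34 per transcript length, at 202.1 ± 7.61 CPM per kb in WT and 201.3 ± 7.26 in D69A.

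The 3 catalytic beta genes gave no call. Psmb5 encodes the chymotrypsin-like subunit and was at 122.5, 100.9, 116.0, 94.7 and 113.4 CPM in WT 2 to WT 6. In D69A 1 to D69A 5 it was at 110.8, 109.6, 119.7, 121.4 and 119.5 CPM. The groups overlapped, WT 5 and WT 3 were the lowest of all 10, and the log2 fold change was 0.09 (95% interval -0.08 to 0.25, adjusted p = 0.366). Psmb6, the caspase-like subunit, was at 137.2, 134.5, 149.1, 128.4 and 143.4 CPM in WT and at 136.4, 122.1, 133.4, 142.9 and 134.7 CPM in D69A. The ranges overlapped here too, with a log2 fold change of -0.05 (95% interval -0.17 to 0.08, adjusted p = 0.519). Psmb7, the trypsin-like subunit, was at 139.9, 133.8, 150.0, 134.5 and 146.7 CPM in WT and at 146.0, 127.7, 150.8, 160.0 and 145.5 CPM in D69A. D69A held both its lowest and its highest value, and the log2 fold change was 0.05 (95% interval -0.09 to 0.19, adjusted p = 0.548). The exons of Psmb7 share 11.8% of their sequence with Nek6 on the opposite strand.

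The inducible counterparts of these 3 genes all fell. Psmb8 replaces Psmb5 in the immunoproteasome and was at 92.7, 187.7, 134.8, 205.9 and 128.7 CPM in WT 2 to WT 6, against 51.6, 34.2, 18.7, 31.2 and 26.2 CPM in D69A 1 to D69A 5. Psmb9, which replaces Psmb6, was at 54.0, 119.2, 92.4, 117.9 and 81.5 CPM in WT and at 28.9, 15.3, 8.92, 16.1 and 14.7 CPM in D69A. Psmb10, which replaces Psmb7, was at 73.8, 116.7, 99.0, 88.9 and 97 CPM in WT and at 49.7, 37.8, 27.4, 38 and 32.7 CPM in D69A. In each of them WT 2 was the lowest WT tumor, D69A 1 the highest D69A tumor, and the groups did not overlap. The log2 fold changes were -2.21 for Psmb8 (adjusted p = 0.000516), -2.47 for Psmb9 (adjusted p = 0.000472) and -1.36 for Psmb10 (adjusted p = 0.000447), a 4.63-fold, 5.53-fold and 2.56-fold lower level. The exons of Psmb9 share 5.8% of their sequence with Tap1 on the opposite strand, which is also in the count table.

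**Figure D2:**
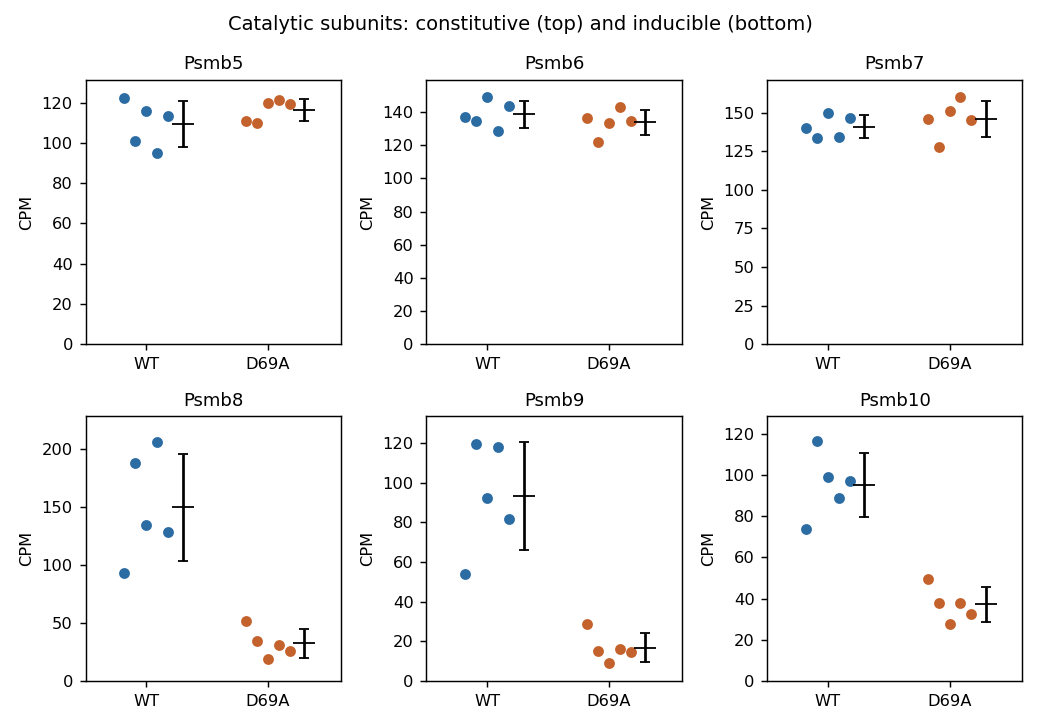
CPM per tumor (y axis) for the constitutive catalytic genes Psmb5, Psmb6 and Psmb7 (top) and the inducible gene that replaces each (bottom) in the WT and D69A groups (x axis). Points are tumors, bars the mean and SD of 5 tumors. The groups overlap in the top panels and are apart in the bottom panels.

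Each inducible gene was then set against its constitutive partner within every tumor. The log2 difference of Psmb8 minus Psmb5 was 0.40 ± 0.61 in WT and -1.92 ± 0.59 in D69A (SD, n = 5), that of Psmb9 minus Psmb6 was -0.63 ± 0.50 and -3.09 ± 0.59, and that of Psmb10 minus Psmb7 was -0.58 ± 0.26 and -2.0 ± 0.35. The ratio of inducible to constitutive RNA was thus 5.0-fold, 5.51-fold and 2.67-fold lower in D69A. The group labels were permuted exactly (two-sided, 252 assignments of 5 against 5). By that permutation test every pair gave p = 0.00794, the smallest such a design allows, and 0.00794 after adjustment over the 3 pairs. The constitutive partners changed little, so these p-values restate the fall of the inducible genes and are no further support for it.

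Per transcript length, Psmb8 made up 26.1% to 50.4% of the Psmb8 and Psmb5 RNA in WT and 6.79% to 17.9% in D69A. The share of Psmb9 in its pair was 18.9% to 35.2% in WT and 3.8% to 11.1% in D69A, and that of Psmb10 was 31.8% to 43.6% and 13.8% to 23.1%. The 3 inducible genes summed to 338.0 ± 83.4 CPM in WT and 86.3 ± 27.7 CPM in D69A, a change of -74.5%, while Psmb5, Psmb6 and Psmb7 summed to 388.9 ± 24.4 and 396.1 ± 23.6 CPM. The inducible sum was highest in WT 3 and WT 5 and, within D69A, in D69A 1, which were also the tumors highest in leukocyte RNA of their groups. The part of leukocyte content in the fall was not tested.

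**Figure D3:**
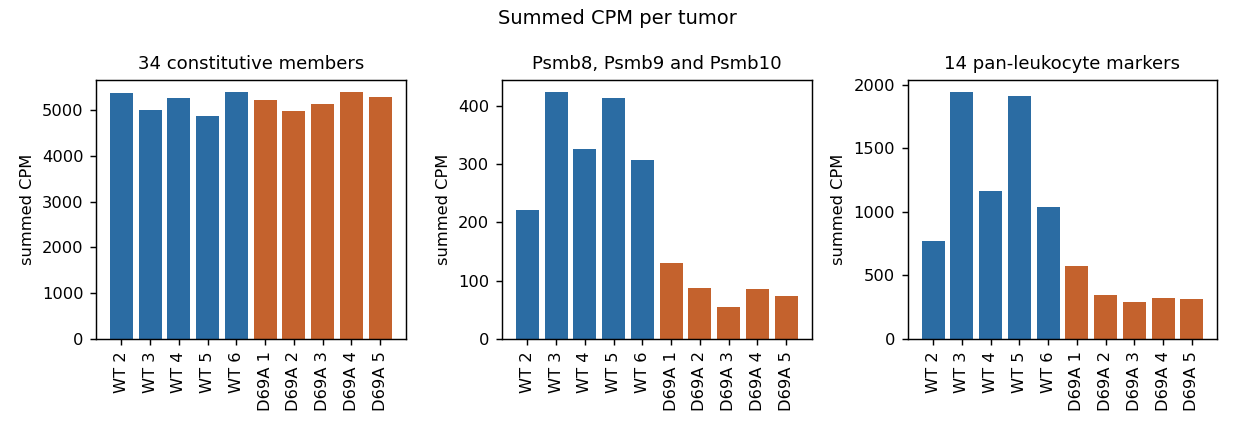
Summed CPM per tumor (y axes, each starting at 0) of the 34 constitutive genes, of Psmb8, Psmb9 and Psmb10, and of 14 pan-leukocyte markers, in WT 2 to 6 and D69A 1 to 5 (x axes). The constitutive sums stay between 4880.4 and 5398.9 CPM, and the other 2 sums are lower in every D69A tumor than in every WT tumor.

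The 4 other beta genes, Psmb1 to Psmb4, encode subunits that hold the ring together without cutting, and none passed the threshold. Psmb1 was at 190.5, 188.4, 208.8, 192.7 and 202.2 CPM in WT and at 204.7, 193.8, 218.6, 190.0 and 214.0 CPM in D69A, with a log2 fold change of 0.06 (adjusted p = 0.432). Psmb2 was at 110.8, 107.4, 108.8, 102.1 and 101.6 CPM in WT and at 102.5, 97.3, 97.6, 105.8 and 100.2 CPM in D69A, with a log2 fold change of -0.08 (adjusted p = 0.208). These were the ends of the range for the list, and in both the groups overlapped. Psmb3 had the widest spread of the 4 in WT, at 132.8 ± 16.6 CPM.

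None of the 6 ATPase genes, whose products form the ring that unfolds substrates and threads them into the core, passed the threshold, and their median log2 fold change was 0.04. The highest was Psmc6, at 178.4, 163.5, 197.3, 159.9 and 177.8 CPM in WT and 193.1, 183.8, 184.8, 189.4 and 176.1 CPM in D69A, with a log2 fold change of 0.08 (95% interval -0.05 to 0.22, adjusted p = 0.309). The lowest was Psmc2, at 128.6, 122.1, 121.5, 118.3 and 131.4 CPM in WT and 126.5, 111.2, 120.3, 127.7 and 129.7 CPM in D69A, with a log2 fold change of -0.02 (95% interval -0.14 to 0.11, adjusted p = 0.846). In both genes the groups overlapped. Psmc1, Psmc3, Psmc4 and Psmc5 lay between them.

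The base also holds 3 subunits without ATPase activity, and none of them passed the threshold. Psmd2, the large scaffold to which ubiquitin shuttle factors dock, was at 366.5, 318.7, 322.6, 309.5 and 378.3 CPM in WT and 367.9, 358.6, 351.9, 393.1 and 395.1 CPM in D69A. Its paralog Psmd1 was at 301.5, 291.0, 268.6, 269.2 and 340.4 CPM in WT and 312.7, 312.6, 312.6, 323.8 and 325.3 CPM in D69A. In both, WT 6 was the highest WT tumor and lay within or above the D69A range. The log2 fold changes were 0.14 for Psmd2 (adjusted p = 0.124) and 0.11 for Psmd1 (adjusted p = 0.201), and without WT 6 both genes passed, with 0.18 and 0.17 (adjusted p = 0.0474 and 0.0255).

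Psmd4, a ubiquitin receptor of the base, was at 134.9, 125.2, 122.9, 130.5 and 131.1 CPM in WT and 126.6, 109.7, 119.7, 112.8 and 118.5 CPM in D69A. D69A 1 lay within the WT range and the other D69A tumors below it. The log2 fold change was -0.13 (95% interval -0.25 to -0.02, adjusted p = 0.056). The gene passed the threshold without D69A 1 (-0.15, adjusted p = 0.037), and also by DESeq2, with upper quartile scaling, with library size alone and with the 3 muscle-high tumors left out, at adjusted p between 0.0299 and 0.0419.

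Of the 8 lid genes none rose and 1 fell, and the median log2 fold change was 0.00. Psmd8 (mm10 chromosome 7, 29174188 to 29180701, minus strand) encodes a subunit whose arrival completes the assembly of the lid. It was at 245.9, 281.7, 246.8, 321.4 and 260.3 CPM in WT 2 to WT 6 and at 193.9, 227.3, 235.4, 224.2 and 233.4 CPM in D69A 1 to D69A 5. Every WT tumor lay above every D69A tumor, WT 5 and WT 3 were the highest, and D69A 1 was the lowest. The means were 271.2 ± 31.6 and 222.8 ± 16.8 CPM (SD, n = 5), which is 1.22-fold lower in D69A, with a log2 fold change of -0.28 (SE 0.08, 95% interval -0.47 to -0.10, adjusted p = 0.0188). WT 5 and WT 3 were also the tumors highest in leukocyte and fibroblast RNA, while D69A 1, the highest in both among the D69A tumors, had the lowest Psmd8. The part of other cell types in the fall was not tested. The call was lost without WT 3 (adjusted p = 0.0538), without WT 5 (-0.18, adjusted p = 0.051) and once the 3 muscle-high tumors were left out (-0.26, adjusted p = 0.0682), and it held in the other 8 fits that left out 1 tumor.

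The lid genes with the highest fold changes were Psmd13 and Psmd6, both structural subunits. Psmd13 was at 140.8, 135.5, 144.7, 120.9 and 146.9 CPM in WT and 146.8, 138.9, 135.7, 159.6 and 146.3 CPM in D69A, with a log2 fold change of 0.08 (adjusted p = 0.352). Psmd6 was at 94.6, 81.8, 88.9, 85.1 and 81.3 CPM in WT and 96.4, 84.4, 91.9, 88.4 and 94.0 CPM in D69A, also with 0.08 (adjusted p = 0.31). The groups overlapped in both. Psmd14, the deubiquitinase of the lid, was at a mean of 111.8 ± 4.54 CPM (WT) and 112.9 ± 4.13 CPM (D69A), with a log2 fold change of 0.01 (95% interval -0.09 to 0.12). Psmd3, Psmd7, Psmd11 and Psmd12 had log2 fold changes between -0.06 and 0.06.

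The 3 base chaperones Psmd5, Psmd9 and Psmd10 bind the ATPases while the base is put together and are absent from the finished particle. Psmd10 (mm10 chromosome X, 140948429 to 140956728, minus strand), also known as gankyrin, rose. It was at 53.6, 45.4, 51.0, 42.0 and 55.6 CPM in WT 2 to WT 6 and at 59.3, 54.7, 60.5, 64.6 and 57.7 CPM in D69A 1 to D69A 5. WT 6 lay just above the lowest D69A tumor, so the groups overlapped by that pair, and WT 5 and WT 3 were the lowest. The means were 49.5 ± 5.68 and 59.3 ± 3.61 CPM (SD, n = 5), a 1.2-fold higher level in D69A with a log2 fold change of 0.26 (SE 0.08, 95% interval 0.08 to 0.44, adjusted p = 0.0226). The call was lost without WT 3 (0.24, adjusted p = 0.0528) and held in the other 9 fits that left out 1 tumor. It was also lost once the 3 muscle-high tumors were left out (0.24, adjusted p = 0.13) and with library size as the only scaling (0.22, adjusted p = 0.0677).

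Psmd5 was at 54.8, 47.1, 50.5, 43.1 and 52.3 CPM in WT and at 52.5, 54.7, 55.4, 54.8 and 55.4 CPM in D69A. WT 5 and WT 3 were again the lowest, the groups overlapped, and the log2 fold change was 0.14 (adjusted p = 0.103). Without WT 2 it passed, at 0.18 (adjusted p = 0.0359). Psmd9 was at 37.1, 32.2, 33.0, 30.6 and 32.5 CPM in WT and at 37.6, 33.5, 33.5, 34.5 and 34.3 CPM in D69A, with a log2 fold change of 0.07 (adjusted p = 0.412).

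**Figure D4:**
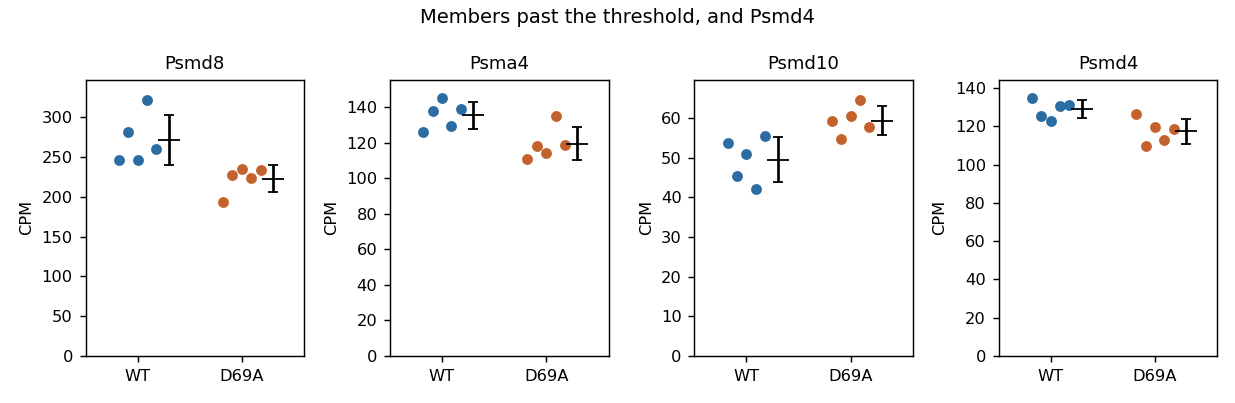
CPM per tumor (y axis) in the WT and D69A groups (x axis) for Psmd8, Psma4 and Psmd10, the 3 genes past the threshold, and for Psmd4, at an adjusted p of 0.056. Points are tumors, bars the mean and SD of 5 tumors, and the 2 groups are apart in the Psmd8 panel.

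Levels of different genes were compared per kb of transcript, using the median length of each gene's protein-coding transcripts. The 3 chaperones were the lowest of the 34. In WT, Psmd5 was at 11.3 ± 1.04, Psmd9 at 12.7 ± 0.928 and Psmd10 at 35.1 ± 4.03 CPM per kb, and in D69A they were at 12.4 ± 0.273, 13.3 ± 0.651 and 42.1 ± 2.56. The 31 listed subunits of the finished particle ran in WT from 56.1 CPM per kb, in Psma2 and Psmd11, to 202.1 in Psma6. After Psma6 came Psmd8 at 177.7 ± 20.7, Psmb6 at 173.6 ± 10 and Psmb3 at 173.4 ± 21.7 CPM per kb, which do not differ beyond their spread. The order of neighbours in the middle of the range cannot be told apart for the same reason. In D69A Psmd8 was at 146.0 ± 11.0 CPM per kb and stood below Psma6, Psmb3, Psma1, Psmb6, Psma7, Psmb4 and, within its spread, Psmb5. The median length is an approximation, since the isoform in use was not measured.

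**Figure D5:**
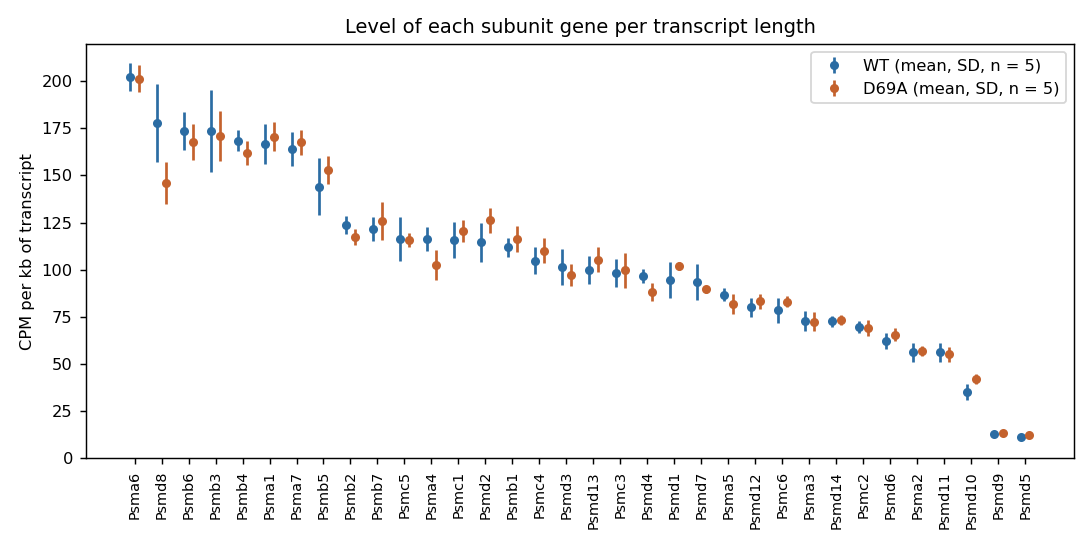
CPM per kb of transcript (y axis, from 0) of the 34 genes, ordered by their WT mean (x axis), as mean and SD of 5 tumors in WT and D69A. Psmd10, Psmd9 and Psmd5 are the lowest in both groups, at 11.3 to 42.1 CPM per kb, and the other 31 genes are at 55.2 or more.

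Around the constitutive particle, 48 further genes of the pathway were listed and 47 were tested. Of the 47, 3 rose, 6 fell and 38 did not pass the threshold, while 18.8% of all tested genes rose and 24.7% fell. The 47 had a median log2 fold change of 0.04. Beside Psmb8, Psmb9 and Psmb10, the genes that fell were Psme1 and Psme2, which encode the interferon-inducible activator PA28, and Pomp, the chaperone of core maturation. Psme1 was at 143.8, 191.5, 167.8, 185.4 and 158.4 CPM in WT and 108.3, 88.9, 84.1, 87.2 and 83.5 CPM in D69A, with a log2 fold change of -0.91 (adjusted p = 0.000382). Psme2 was at 94.9, 134.8, 133.1, 130.3 and 106.5 CPM in WT and 61.9, 54.6, 48.2, 54.3 and 52.5 CPM in D69A, with a log2 fold change of -1.14 (adjusted p = 0.000341). The groups did not overlap in either gene. Psme2 has a near-identical copy in the table, Psme2b, with 99.4% identity over 794 bases, so its count is uncertain.

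Pomp was at 84.9, 83.3, 97, 87.7 and 86.3 CPM in WT and 78.0, 79.3, 80.1, 78.5 and 81.0 CPM in D69A. The groups did not overlap, and the log2 fold change was -0.15 (adjusted p = 0.0353). Leaving out 1 tumor at a time ended that call 7 times in 10. The other 4 core assembly genes, Psmg1 to Psmg4, did not pass. The 3 genes that rose were Psme4, which encodes the activator PA200, Ube3c, a ubiquitin ligase that binds the proteasome, and Nfe2l2, which encodes the stress transcription factor NRF2.

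Psme4 was at 154.2, 156.9, 144.7, 151.9 and 168.1 CPM in WT and 156.9, 182.4, 176.4, 197.6 and 175.2 CPM in D69A, with a log2 fold change of 0.20 (adjusted p = 0.0321). D69A 1 lay within the WT range, and the call was lost without D69A 2, D69A 4, D69A 5, WT 3 or WT 4. Ube3c was at 94.0, 91.7, 91.3, 87.1 and 104.2 CPM in WT and 106.3, 122.0, 117.2, 118.4 and 117.6 CPM in D69A, with a log2 fold change of 0.31 (adjusted p = 0.00204). Nfe2l2 was at 132.7, 111.3, 116.6, 120.8 and 119.2 CPM in WT and 134.2, 150.0, 142.0, 149.9 and 155.4 CPM in D69A, with a log2 fold change of 0.28 (adjusted p = 0.00344). Neither of these 2 overlapped between the groups, and both calls held when any 1 tumor was left out.

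Nfe2l1 encodes NRF1, which raises transcription of proteasome genes when proteasome activity is short, and it was at a mean of 231.5 CPM (WT) and 236.3 CPM (D69A), with a log2 fold change of 0.03 (adjusted p = 0.786). The genes that release and process NRF1, Ddi2, Ngly1 and Syvn1, had log2 fold changes of 0.05, 0.02 and -0.11 and did not pass. Among the 6 shuttle factors, which carry ubiquitinated proteins to the particle, none passed, and Ubqln1 came nearest, at 0.18 (adjusted p = 0.0503). None of the 7 genes of the p97 segregase complex and none of the 6 ubiquitin and E1 genes passed. Vcp, the segregase itself, was at a mean of 476.8 CPM (WT) and 510.4 CPM (D69A), with a log2 fold change of 0.10 (adjusted p = 0.342). The ubiquitin gene Ubb was at a mean of 1068.8 CPM (WT) and 1096.7 CPM (D69A).

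Near copies limit the counts of some members. Of the 34 genes 12 have a near copy at another locus, with at least 90% identity over at least 200 aligned bases, and each of the 12 has a pseudogene among these copies. They include the called gene Psma4 and the catalytic genes Psmb5 and Psmb6. None of the 25 pseudogenes concerned was in the count table, so how their reads were assigned is unknown. Psma3 also has a protein-coding near copy that is in the table, Gm609, with 96.3% identity over 327 bases. Exons of 5 members overlap those of another gene in the table.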

How the data were processed

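RNA was sequenced from 5 WT and 5 D69A tumors, grouped by their titles. The authors deposited 1 table of whole-number read counts per Ensembl gene, not scaled between tumors. Per the submitters' processing notes, fastp, HISAT, Bowtie, RSEM and mm10 were used. What each tool did, its version, the annotation, how reads were counted and whether by strand is not given in the sources used here. The deposited counts may be rounded RSEM estimates. Without strand, reads of overlapping genes cannot be told apart. Column names assigned every column to a tumor. Each of the 20 pairs of tumors within a group differed by more than sampling noise (chi-square at least 13.9 per degree of freedom).

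Symbols and coordinates came from GENCODE vM21. Low counts were filtered with filterByExpr by group, and edgeR 4.0.16 in R 4.3.3 gave TMM factors, CPM, the quasi-likelihood test and Benjamini-Hochberg adjusted p-values over 13798 genes. SEs and 95% intervals were derived from the F statistic. Pair differences were taken on log2 CPM (prior count 2) and tested by an exact permutation test (scipy 1.17.1). Near copies were searched with BLAST 2.17.0+. Promoter sequences came from RefSeq on GRCm38.p6. The test was also run on counts simulated with known changes from the levels and spread of these data, and the outcome is not reported here.

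The members, the pathway and marker lists, the tests and the rule for named genes were chosen with earlier results of these data known. Values per tumor are given for the catalytic subunits, for the highest and lowest fold change of each role list, for up to 4 further members with the smallest p, and for up to 3 genes past the threshold in each pathway list. Psma6, Psma3, Psmb3, Psmd14, Nfe2l1, Vcp, Ubb, Ubqln1, Ddi2, Ngly1 and Syvn1 are named outside that rule, after a look at their values. Alternatives were DESeq2 1.42.0, limma-voom (limma 3.58.1), RLE, upper quartile and library size scaling, no filter on low counts, a test against a fold of 1.2, a replicate block, each tumor left out, and the 3 tumors highest in muscle RNA left out.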

Additional observations from a re-analysis of the deposited data

Results flagged for a closer look

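In 5 of 86 groups of values, or 5.81%, 1 tumor stood far from the other 4 of its group. Chance gives about 1 in 20 for independent groups. The groups here are genes of the same 10 tumors and not independent, so that rate cannot decide whether these cases are chance. Psma3 was at 152.2 CPM in WT 4, against 129.9 to 132.9 CPM in the other WT tumors. The other 4 cases were all D69A 1, the tumor with the highest leukocyte and muscle sums of its group. In that tumor Psmd8 was at 193.9 CPM (others 224.2 to 235.4), Psmd5 at 52.5 CPM (others 54.7 to 55.4), Psmd9 at 37.6 CPM (others 33.5 to 34.5) and Psme1 at 108.3 CPM (others 83.5 to 88.9). Without D69A 1, Psmd8 and Psmd10 were still called and Psma4 was not, at an adjusted p of 0.105.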

How the results depend on the processing

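Across the alternatives no called gene changed direction, and fold changes of the 34 stayed between -0.33 (Psmd8, library size alone) and 0.31 (Psmd10, replicate block); sign changes of genes that were never called were not counted. The number of members higher was 0 with library size alone, with the test against a fold of 1.2 and without the 3 tumors highest in muscle RNA, and 0 to 3 when 1 tumor was left out. The number lower was 3 by DESeq2, with upper quartile scaling and with library size alone (Psma4, Psmd4 and Psmd8), 1 without the filter on low counts, where more genes were tested, 1 without the muscle-high tumors (Psmd4), 0 against a fold of 1.2, and 0 to 2 when 1 tumor was left out. Of the other pathway genes 5 were higher by DESeq2 and by limma-voom, 0 against a fold of 1.2, and 2 to 6 when 1 tumor was left out. Apart from the fold test, which asks for a larger change, and the fits on fewer tumors, the cause was not tested. Over all genes, 609 rose and 2484 fell against a fold of 1.2. The share of calls that were higher was 43.2%, and it was 36.5% with upper quartile scaling, 33.6% with library size alone, 39.8% without the muscle-high tumors and 19.7% against a fold of 1.2. The members split 19 above and 15 below 0, but 15 and 19 with upper quartile scaling and 14 and 20 with library size alone. The groups share 4 replicate numbers, and same-numbered tumors deviated from their group means with correlations of 0.18, -0.42, 0.20 and 0.17, so the numbers were not taken to pair tumors. With a replicate block 0 members were lower, and the 3 pair differences were -2.58, -2.72 and -1.53 (exact p = 0.125, the smallest that 4 pairs allow). At this depth the members' median SE was 0.06 on the log2 scale.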
